A study of Homo sapiens with 4 samples.

Results

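Cancer-testis antigen genes were followed across 4 Illumina HumanHT-12 v4 bead arrays of MDA-MB-231, a long-established human breast cancer cell line of mesenchymal character. Members were the genes whose symbol in the deposited signal table begins with MAGEA, MAGEB, MAGEC, GAGE, PAGE, XAGE, SPANX, CTAG or BAGE, or with SSX and a digit. These were 99 of 31426 gene symbols, read by 173 of the 47323 probes. Of these probes, 162 belong to the antigen families that the prefixes name. The other 11 match a prefix by letters alone, being 10 CTAGE probes and 1 probe of SSX2IP. SSX2IP is an adhesion-junction protein named for its binding to SSX2 and not a member of that family. The split is by family name and does not say whether CTAGE genes are antigens. The cells carried either an shRNA against TRPM7, a cation channel joined to a kinase (shT7#1, 2 arrays), or a scrambled shRNA (shCntrl, 2 arrays). Both groups were the same line, transduced with a hairpin and grown in the same serum-containing medium, and 1 hairpin sequence represents the knockdown. The labels number the arrays within each group without stating separate cultures. The p-values below therefore measure only the spread among these arrays, part of it borrowed across probes by the fit. That spread may be technical.

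Cancer-testis antigens are proteins made mainly in male germ cells and placenta and made again by many tumours. Most of the families studied here lie as tandem copies on the X chromosome. In most adult tissues their promoters carry DNA methylation and the genes are silent, and loss of that methylation is a known route to their transcription in cancer cells. Copies within a family are so alike that an array probe can bind several of them. The families were therefore read as groups.

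The single TRPM7 probe was not above background on any array, with detection p-values of 0.529 and 0.331 in shT7#1 cells and 0.275 and 0.443 in shCntrl cells, so the array does not check the knockdown. SOX4, the transcription factor named in the series title, was 4.35-fold lower in shT7#1 cells (-2.12 ± 0.13 log2, SE, limma adjusted p = 0.00310). A probe was called above background at a detection p below 0.05, a threshold that 5% of empty probes pass. Per array, 19492 and 19938 probes passed it in shT7#1 cells, against 19779 and 20261 in shCntrl cells. Median signals were 117.6 and 125.4 in shT7#1 cells and 119.3 and 120.7 in shCntrl cells. Markers of this line, VIM, CD44, AXL, CAV1, ITGB1 and EGFR, were above background on every array, and none of these 6 passed the test. The germ cell markers DDX4, DAZL, PRM2, STRA8, LIN28A, SALL4 and ZPBP were above background on no array. The other germ cell markers, SYCP3, TNP1 and PRM1, were above background, but on fewer than the 2 arrays that the test below required. The summed signal of the 10 germ cell markers was 1102 to 1167 in shT7#1 cells and 1094 to 1118 in shCntrl cells.

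Most cancer-testis antigen probes gave no signal in either group. Of the 173 probes, 128 were above background on none of the 4 arrays and 20 were on all 4. Per array 27 and 33 member probes were above background in shT7#1 cells, against 28 and 32 in shCntrl cells. The 20 probes that passed everywhere came from 6 symbol groups. They were 8 SPANX, 7 XAGE, 2 PAGE, 1 MAGEC and 1 GAGE probes and the SSX2IP probe. No probe of the MAGEA, MAGEB, SSX, BAGE or CTAG groups passed on all 4.

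**Figure D1:**
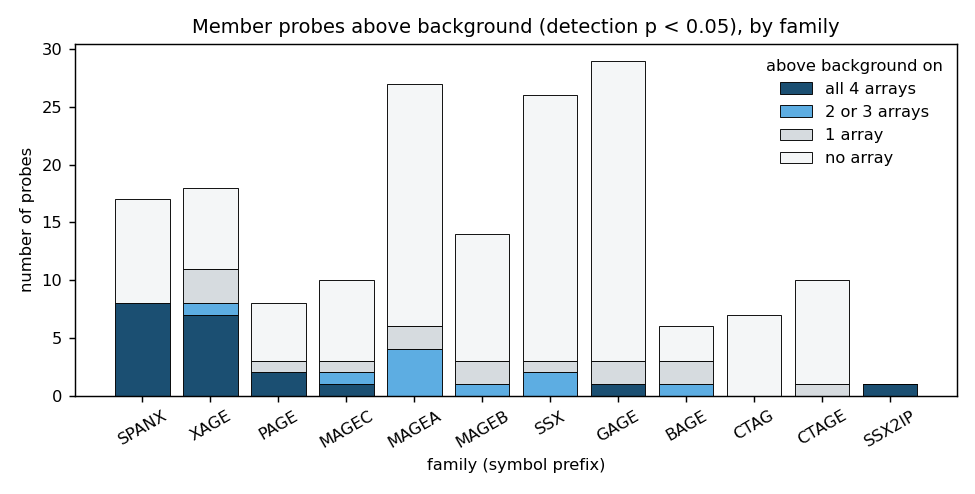
Number of probes of each family (bar length) by how many of the 4 arrays had them above background at a detection p below 0.05. SPANX and XAGE hold 8 and 7 of the 20 probes that passed on all 4 arrays, while all 7 CTAG probes passed on none.

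A probe above background on at least 2 arrays was tested, which left 30 member probes of 23 symbols. The test was limma's moderated fit over all 20366 probes that passed the same filter, with Benjamini-Hochberg adjustment over all of them and a threshold of 0.05. Of the 30 members, 8 were lower in shT7#1 cells, none was higher and 22 did not pass. All 8 were SPANX probes, and they were all of the SPANX probes tested. Across the array 4.66% of tested probes were called, 2.58% as lower and 2.09% as higher. The median log2 change was -0.19 over the 30 members and -0.10 over the 22 tested members outside SPANX, against 0.00 over all probes tested. Among those 22, MAGEB1 and SSX3 had an unadjusted p below 0.05, which is 2 of 22 beside 23.8% of all tested probes. Each of these probes had passed the detection filter only through the group where it was higher. After normalisation the shT7#1 and shCntrl arrays did not overlap for 19 of the 30 members, beside 53.8% of all tested probes.

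**Figure D2:**
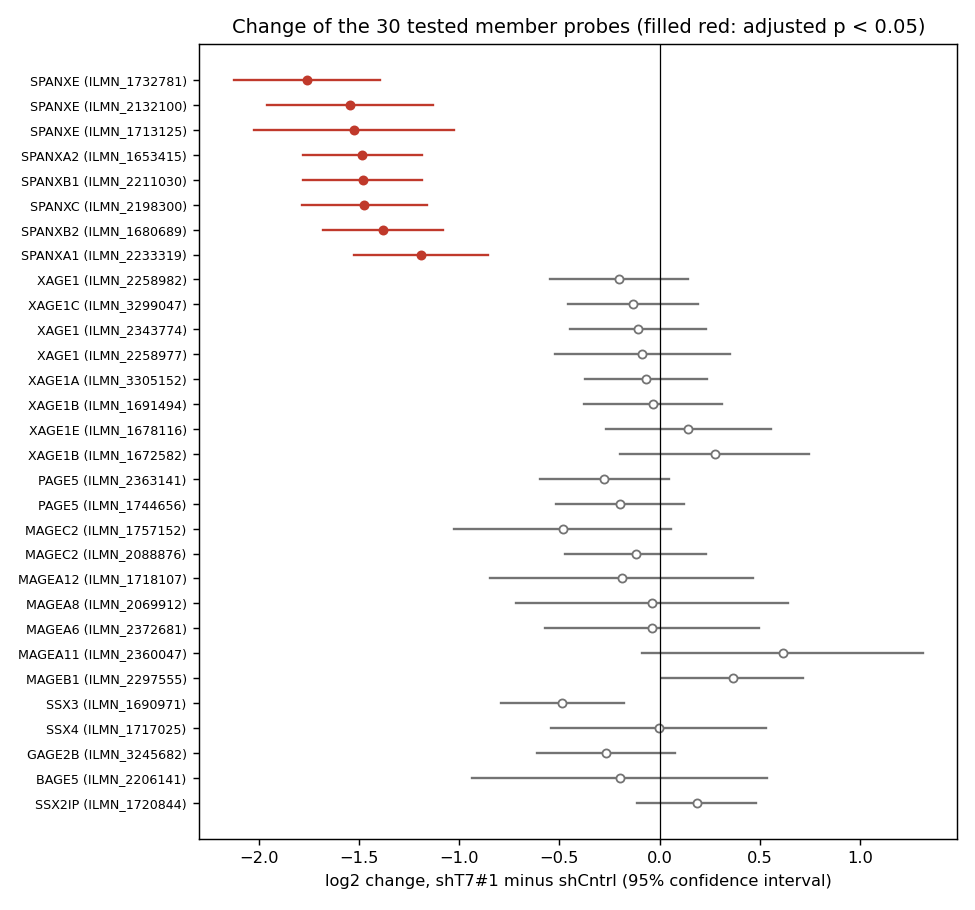
Log2 change (shT7#1 minus shCntrl) of each of the 30 tested member probes with its 95% confidence interval, grouped by family. The 8 SPANX probes lie between -1.76 and -1.19 with intervals below 0, and no other member passed the adjusted threshold.

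SPANX genes encode small proteins of the sperm nucleus and, SPANXN5 apart, are clustered on the distal long arm of the X chromosome. Their transcripts were 2.28-fold to 3.39-fold lower in shT7#1 cells at each of the 8 detected probes, with a median log2 change of -1.48. These 8 probes carry the symbols SPANXA1, SPANXA2, SPANXB1, SPANXB2, SPANXC and SPANXE. In the RefSeq gene table SPANXB2 is an older name of SPANXB1, and SPANXE is an older name of both SPANXC and SPANXD. The 8 probes may therefore read some of the same transcripts and are not counted as 8 separate observations. Probe sequences were not used here, and which copies each probe binds was not resolved. In a whole-culture RNA sample, fewer SPANX-expressing cells and less SPANX RNA per cell cannot be told apart.

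The SPANXA2 probe had a signal of 1604 and 1814 in shT7#1 cells, against 4361 and 4642 in shCntrl cells. The probe for SPANXB1, the member whose RefSeq start lies first in the cluster, read 1537 and 1739 in shT7#1 cells and 4095 and 4516 in shCntrl cells. The SPANXB2 probe read 1653 and 1846 in shT7#1 cells and 4207 and 4433 in shCntrl cells. For these 3 brightest SPANX probes the higher shT7#1 array was below the lower shCntrl array by a wide margin, and the arrays within a group lay close together. After normalisation the SPANXA2 probe stood at 10.64 and 10.64 log2 units in shT7#1 cells and at 12.14 and 12.10 in shCntrl cells. Its change was -1.48 ± 0.12 (SE, n = 2 arrays per group, limma adjusted p = 0.00533), which is 2.80-fold lower. SPANXB1 changed by -1.48 ± 0.12 (limma adjusted p = 0.00533) and SPANXB2 by -1.38 ± 0.12 (limma adjusted p = 0.00684).

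SPANXC stood lower on the intensity scale. Its probe read 804 and 896 in shT7#1 cells, against 1959 and 2392 in shCntrl cells, and the groups did not overlap. The change was -1.47 ± 0.13 log2 (SE, limma adjusted p = 0.00647), or 2.78-fold lower.

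The 3 SPANXE probes differ in brightness but moved together. The probe ILMN_1732781 read 426 and 463 in shT7#1 cells and 1318 and 1230 in shCntrl cells. The probe ILMN_2132100 read 563 and 518 in shT7#1 cells and 1388 and 1376 in shCntrl cells. The dimmest, ILMN_1713125, read 150 and 172 in shT7#1 cells and 310 and 262 in shCntrl cells. All 3 were lower on both shT7#1 arrays than on either shCntrl array. The changes were -1.76 ± 0.15 for ILMN_1732781, -1.55 ± 0.17 for ILMN_2132100 and -1.52 ± 0.20 for ILMN_1713125 (log2, SE, limma adjusted p = 0.00610, 0.0129 and 0.0196). ILMN_1732781 had the largest change among members, 3.39-fold lower, and ranked 16 from the lowest change among the 20366 probes tested.

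SPANXA1 was read by a dim probe with 154 and 161 in shT7#1 cells, against 238 and 242 in shCntrl cells. Its change, -1.19 ± 0.14 log2 (SE, limma adjusted p = 0.0139), was the smallest of the 8. The other 9 SPANX probes were above background on no array. They include a second probe each for SPANXA1 and SPANXB1, a SPANXD probe and probes for the SPANXN branch of the family, SPANXN1 to SPANXN5. The second SPANXB1 probe read 115 and 117 in shT7#1 cells and 108 and 118 in shCntrl cells, so the detected and undetected probes of this symbol give different readings.

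**Figure D3:**
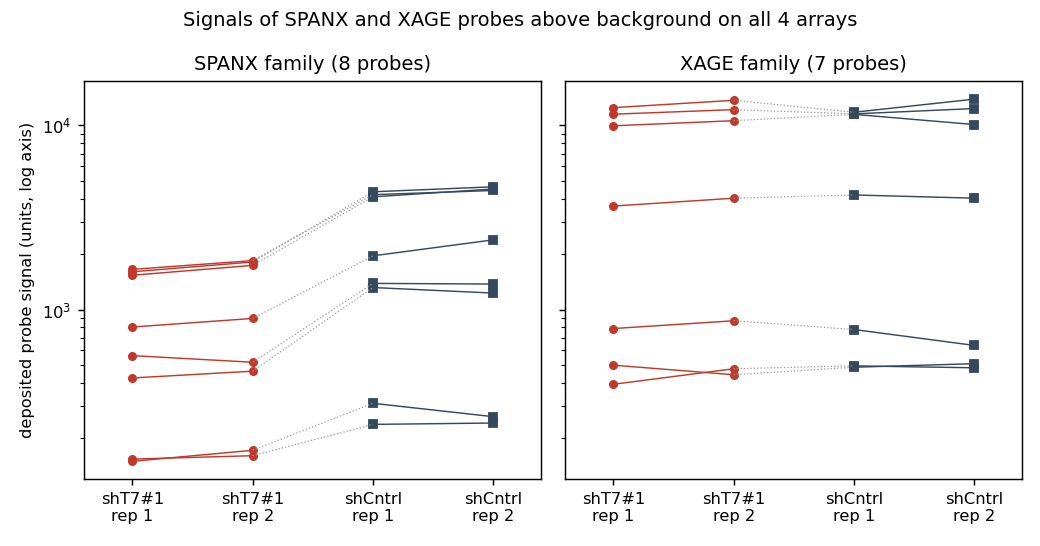
Signal on a log scale of the detected SPANX and XAGE probes on each array, shT7#1 left of shCntrl, with a line joining the values of each probe. SPANX probes such as SPANXA2 sit at 1604 and 1814 in shT7#1 cells against 4361 and 4642 in shCntrl cells, while the brightest XAGE1B probe stays between 11783 and 13883.

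Leaving out 1 array at a time kept every SPANX change negative, between -1.91 and -1.10 log2 over the 8 probes. The number of SPANX probes that passed the adjusted threshold of limma then fell to 0 without shT7#1 replicate 1, to 3 without shT7#1 replicate 2, to 2 without shCntrl replicate 1 and to 4 without shCntrl replicate 2. All 8 kept an unadjusted p below 0.05 in each of these fits, and over the array 64 to 125 probes passed in place of 950. On the authors' processed log2 values, which hold 1 value per symbol, limma called 0 of the 13 SPANX symbols, 6 of which had an unadjusted p below 0.05 and a lower value in shT7#1 cells.

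In the authors' deposited table the ratio of shT7#1 over shCntrl was 0.35 for SPANXA2, 0.38 for SPANXB2, 0.35 for SPANXC and 0.29 for SPANXE. The authors' deposited table gave 0.60 for SPANXA1 and 0.61 for SPANXB1, both closer to 1 than the detected probes of these symbols. Each of these 2 symbols also has an undetected probe, and the way the authors combined probes into 1 value per symbol is not given in the sources used here. For SPANXD, the authors' deposited table gave a ratio of 1.41, at mean log2 values of 2.55 in shT7#1 cells and 2.06 in shCntrl cells, and its probe was above background on no array.

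**Figure D4:**
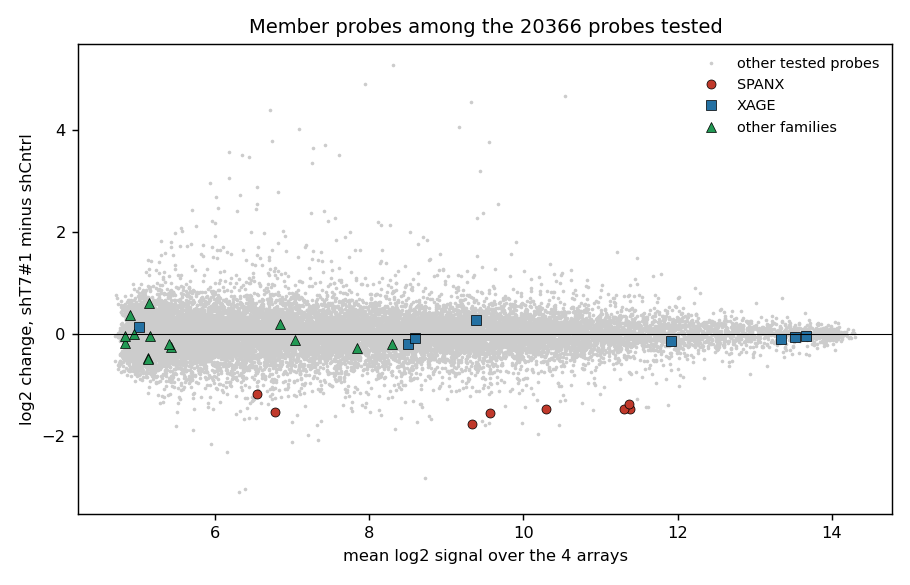
Log2 change (shT7#1 minus shCntrl) against mean log2 signal for the 20366 tested probes, with SPANX, XAGE and other members marked. SPANX probes lie near the lower edge of the cloud at low and high signal, while the brightest XAGE probes lie near 0.

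To show how alike the SPANX genes are around their starts, the RefSeq promoters (GRCh38.p14, 250 bases before to 50 after the annotated start) are given for SPANXB1, SPANXC and SPANXA2, whose probes were lower, for SPANXN3, which was not above background, and for XAGE1A, a bright antigen gene that did not pass the test. The table holds a promoter for 64 of the 99 member symbols and for 4 of the 6 SPANX symbols tested. The windows are chrX:141002344-141002643 on the plus strand for SPANXB1, chrX:141242468-141242767 on the minus strand for SPANXC, chrX:141589458-141589757 on the plus strand for SPANXA2, chrX:143517426-143517725 on the minus strand for SPANXN3 and chrX:52495627-52495926 on the plus strand for XAGE1A. Each is written 5′ to 3′ along the gene. Capitals mark AACAAAG, the core letters bound by SOX-type factors.
SPANXB1: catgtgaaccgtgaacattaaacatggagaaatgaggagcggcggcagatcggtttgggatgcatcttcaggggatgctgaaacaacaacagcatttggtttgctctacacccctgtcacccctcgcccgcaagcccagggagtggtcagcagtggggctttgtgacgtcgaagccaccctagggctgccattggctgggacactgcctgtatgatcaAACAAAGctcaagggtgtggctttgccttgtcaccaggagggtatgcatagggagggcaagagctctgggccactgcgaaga
SPANXC: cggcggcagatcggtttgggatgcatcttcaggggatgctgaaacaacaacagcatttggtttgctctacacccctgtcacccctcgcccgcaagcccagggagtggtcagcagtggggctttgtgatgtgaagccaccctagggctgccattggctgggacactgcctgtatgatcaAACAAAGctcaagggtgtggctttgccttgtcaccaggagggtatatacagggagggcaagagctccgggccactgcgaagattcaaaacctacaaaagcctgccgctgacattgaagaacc
SPANXA2: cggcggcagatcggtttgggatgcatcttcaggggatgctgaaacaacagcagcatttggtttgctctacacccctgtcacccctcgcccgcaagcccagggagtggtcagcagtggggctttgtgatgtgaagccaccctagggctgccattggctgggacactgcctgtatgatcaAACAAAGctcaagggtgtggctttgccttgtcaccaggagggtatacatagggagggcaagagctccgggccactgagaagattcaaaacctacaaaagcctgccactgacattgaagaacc
SPANXN3: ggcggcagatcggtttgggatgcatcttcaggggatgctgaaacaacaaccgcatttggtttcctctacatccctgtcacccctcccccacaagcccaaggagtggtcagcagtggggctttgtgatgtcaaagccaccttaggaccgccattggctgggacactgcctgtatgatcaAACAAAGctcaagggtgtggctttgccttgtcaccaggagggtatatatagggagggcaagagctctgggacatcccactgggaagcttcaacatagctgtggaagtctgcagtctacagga
XAGE1A: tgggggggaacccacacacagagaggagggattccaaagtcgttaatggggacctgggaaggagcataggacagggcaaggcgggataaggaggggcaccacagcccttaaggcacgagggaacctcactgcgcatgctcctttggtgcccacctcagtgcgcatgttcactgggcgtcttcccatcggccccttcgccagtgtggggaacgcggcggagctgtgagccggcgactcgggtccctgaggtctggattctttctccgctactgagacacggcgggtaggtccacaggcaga

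The SPANXC window was identical to that of SPANXA2 at 295 of 300 bases (98.3%) in a local alignment, and the windows of SPANXA1 and SPANXA2 were identical at 300 of 300. SPANXN3, whose probe stayed at background, shared 249 of 270 aligned bases with SPANXA2 (92.2%). AACAAAG, searched on both strands, was present in 8 of the 9 SPANX promoters in the table, in 2 of 6 SSX, 1 of 10 MAGEB and 1 of 3 CTAGE promoters, in none of the other members' promoters, XAGE included, and in 5.2% of all 35116 promoters. It lay 32 bases before the start of SPANXB1 and 72 bases before those of SPANXC and SPANXA2. The 8 windows with it are near-copies of each other, so this is 1 shared sequence and not 8 observations, and it also stands in promoters of SPANXN genes whose probes were at background. A match is a description of letters, not a binding site. Of 6 other motifs searched on both strands, the CCAAT box (CCAAT, in 34.6% of all promoters) stood in all 9 SPANX windows and cannot share letters with AACAAAG. The NF-kB consensus (5.91%) stood in the SPANXN3 window and not in the other 8. The ETS-type CCGGAAG (10.3%), the AP-1-type TGACTCA (4.95%), the E-box CACGTG (7.26%) and the E2F-type GCGGGAAA (1.63%) stood in none of the 9, which says only that these letters are not in these windows. The SPANXB1 window held 9 CpG, SPANXC 8, SPANXA2 6 and SPANXN3 4, against 17 in XAGE1A and a median of 14 over all promoters. PAGE5 and MAGEC2, which were detected and did not pass, held 10 each. Over the families the counts ran from 1 to 9 in SPANX and from 8 to 17 in XAGE, so the ranges overlap. A link between CpG count and change was not tested.

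XAGE1 genes, a GAGE-related family of testis and tumours, gave the brightest signals among the members. Of 8 XAGE probes tested none passed, none had an unadjusted p below 0.05, and the median log2 change was -0.08. The brightest, the XAGE1B probe ILMN_1691494, read 12482 and 13680 in shT7#1 cells, against 11783 and 13883 in shCntrl cells. Its 2 shT7#1 values lay between the 2 shCntrl values. The change was -0.034 ± 0.14 log2 (SE, limma adjusted p = 0.919), and its 95% interval of -0.38 to 0.31 covers ratios of 0.769 to 1.24. This direction turned under median scaling and on the authors' values, which hold 1 value per symbol, so none is given for the gene. The other tested XAGE1B probe, ILMN_1672582, changed by 0.27 log2 (limma adjusted p = 0.449).

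The XAGE1 probe ILMN_2343774 read 9949 and 10604 in shT7#1 cells and 11480 and 10106 in shCntrl cells, with a log2 change of -0.11 (limma adjusted p = 0.692). The XAGE1A probe read 11503 and 12178 in shT7#1 cells and 11544 and 12346 in shCntrl cells, with a log2 change of -0.07 (95% interval -0.37 to 0.23, limma adjusted p = 0.790). XAGE1C read 3649 and 4024 in shT7#1 cells and 4191 and 4027 in shCntrl cells, a change of -0.13 (limma adjusted p = 0.604). Before normalisation the signals of the groups overlapped for these XAGE1 and XAGE1A probes, and XAGE1C was apart only by 4024 against 4027. After normalisation the XAGE1A groups did not overlap, by a small margin. They stood at 13.521 and 13.4615 log2 units in shT7#1 cells and at 13.5224 and 13.5986 in shCntrl cells. The log2 changes of all 8 tested XAGE probes ranged from -0.20 to 0.27. In RefSeq, XAGE1C and XAGE1E are older names of XAGE1B, and XAGE1 is an older name of both XAGE1A and XAGE1B. Which copies each probe binds was not resolved. In the authors' deposited table the ratios were 0.93 for XAGE1, 0.95 for XAGE1A, 1.09 for XAGE1B and 0.91 for XAGE1C.

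SPANX and XAGE can be set against each other within each array, which removes any shift common to an array. The mean log2 signal of the 8 SPANX probes was 8.86 and 8.80 in shT7#1 cells, against 10.38 and 10.25 in shCntrl cells. The mean of the 7 XAGE probes above background on all arrays was 11.28 and 11.22 in shT7#1 cells and 11.36 and 11.24 in shCntrl cells. SPANX minus XAGE averaged -2.42 ± 0.00376 in shT7#1 cells and -0.989 ± 0.00419 in shCntrl cells (SD, n = 2 each), a difference of -1.43 log2. An exact two-sided permutation test of this difference gave p = 0.333, which is the smallest p that 2 arrays against 2 allow, so it could not have passed. The pair of families was compared with both their changes known, and the difference is a description.

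PAGE5 is a member of a family related to GAGE. Its probe ILMN_1695992 was above background on no array, and its other 2 probes were above background on all 4 and were tested. The brighter read 377 and 394 in shT7#1 cells, against 409 and 463 in shCntrl cells. Both shT7#1 arrays lay below both shCntrl arrays, and the change of -0.20 ± 0.13 log2 (SE, limma adjusted p = 0.422) did not pass. The dimmer probe read 295 and 309 in shT7#1 cells and 329 and 375 in shCntrl cells, with a change of -0.28 ± 0.13 (limma adjusted p = 0.269).

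MAGEC2 encodes a partner of the ubiquitin ligase TRIM28. Its brighter probe read 220 and 221 in shT7#1 cells, against 228 and 245 in shCntrl cells. After normalisation the groups overlapped, at 7.10 and 6.84 log2 units in shT7#1 cells and 7.09 and 7.10 in shCntrl cells (change -0.12 ± 0.14, SE, limma adjusted p = 0.672). The dimmer probe, above background on 1 of 2 shT7#1 arrays and on both shCntrl arrays, changed by -0.48 ± 0.22 (limma adjusted p = 0.256). TRIM28 itself changed by 0.025 log2 (limma adjusted p = 0.954).

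The remaining antigen families were close to background. MAGEA proteins, which bind RING-type ubiquitin ligases, had 27 probes, of which 21 were above background on no array and 4 were tested. The 4 tested probes had a median log2 change of -0.038 and none passed or had an unadjusted p below 0.05. MAGEA11, known as a coregulator of the androgen receptor, had the largest of these. Its probe ILMN_2360047 read 146 and 135 in shT7#1 cells and 114 and 130 in shCntrl cells (0.61 ± 0.28 log2, SE, limma adjusted p = 0.263). That probe was above background on both shT7#1 arrays and on 1 shCntrl array. The other MAGEA11 probes, ILMN_1686083, ILMN_2267131 and ILMN_2267990, were above background on no array, so no direction is given for the gene. MAGEA6 read 127 and 137 in shT7#1 cells and 140 and 125 in shCntrl cells, with overlapping groups (-0.037 ± 0.22 log2, limma adjusted p = 0.945).

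The MAGEB1 probe ILMN_2297555 was above background on both shT7#1 arrays and on neither shCntrl array, where only a bound is known. Of the other MAGEB1 probes, ILMN_2413236 was above background on 1 shCntrl array and no shT7#1 array, and ILMN_2413231 on no array. ILMN_2297555 therefore entered the test through shT7#1 alone, and the SSX3 probe ILMN_1690971 through shCntrl alone. Their directions follow from the detection filter and are given as a description. ILMN_2297555 was at least 1.10-fold higher in shT7#1 cells, against the mean of the detection floor or the probe's own signal in shCntrl cells. It did not pass the test, and no direction is given for the gene. SSX3 is of the family whose SSX1 and SSX2 genes form fusions in synovial sarcoma. Its probe ILMN_1690971 was above background on both shCntrl arrays and on neither of the shT7#1 arrays. That probe was at least 1.32-fold lower in shT7#1 cells than in shCntrl cells and did not pass. The other SSX3 probes, ILMN_2242635 and ILMN_2313349, were above background on no array, so no direction is given for the gene. SSX4 changed by -0.0041 log2 (limma adjusted p = 0.994).

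GAGE and BAGE genes were first found as targets of T cells in melanoma. Of 29 GAGE probes 26 were above background on no array, and the 1 tested, GAGE2B, read 134 and 137 in shT7#1 cells and 143 and 146 in shCntrl cells (-0.27 ± 0.14 log2, SE, limma adjusted p = 0.318). BAGE5 read 120 and 156 in shT7#1 cells and 142 and 141 in shCntrl cells, with overlapping groups (-0.20 ± 0.30 log2, limma adjusted p = 0.744). All 7 probes of the CTAG group, which holds the NY-ESO-1 antigen, were above background on no array, with a lowest detection p of 0.0623, so a change there was not detectable. Of the letters-only members, SSX2IP changed by 0.18 ± 0.12 log2 (limma adjusted p = 0.416).

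Cancer-testis antigens outside these families were read from named lists, each gene by its brightest passing probe. Of 41 other X-linked antigens 34 had a probe and 8 were tested, of which 1 was higher, none was lower and 7 did not pass, with a median log2 change of -0.098. The gene that passed was PLAC1, a surface protein of placental trophoblast, at 6.12 and 6.16 log2 units in shT7#1 cells and 5.46 and 5.28 in shCntrl cells (0.77 ± 0.13, SE, limma adjusted p = 0.0370). Of 80 autosomal antigens 29 were tested, of which 1 was lower, none was higher and 28 did not pass, with a median of -0.083. That gene was SPAG4, a SUN-domain protein of sperm, at 5.37 and 4.96 in shT7#1 cells and 6.02 and 6.11 in shCntrl cells (-0.90 ± 0.17, limma adjusted p = 0.0482). Each of these counts is 1 gene, beside 4.66% called among all tested probes.

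MAGE relatives that most tissues express were measured for comparison. Of 12 such genes 8 were tested, of which 1 was lower, none was higher and 7 did not pass, beside 2.58% called lower among all tested probes, with a median log2 change of -0.35. MAGED1, an adaptor of the p75 neurotrophin receptor, passed, with signals of 1584 and 1707 in shT7#1 cells, against 2431 and 2704 in shCntrl cells (-0.71 ± 0.12 log2, SE, limma adjusted p = 0.0386). Its other tested probe changed by -0.91. MAGED2 changed by -0.64 (limma adjusted p = 0.0855). None of PLAC1, SPAG4 and MAGED1 passed with any 1 array left out, with adjusted p-values of 0.123 to 0.164 for PLAC1, 0.0935 to 0.168 for SPAG4 and 0.140 to 0.168 for MAGED1.

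Genes of DNA methylation and germline gene silencing were tested for 26 of the 31 listed. The list joins genes of different roles, among them TET1, TET2 and TET3, so its median does not read silencing. By limma 0 passed in either direction, 8 of 26 had an unadjusted p below 0.05, beside 23.8% of all tested probes, and the median log2 change was 0.055. The maintenance methyltransferase DNMT1 changed by 0.30 (limma adjusted p = 0.210) and its partner UHRF1 by 0.36 (limma adjusted p = 0.186). The de novo enzyme DNMT3B changed by -0.45 (limma adjusted p = 0.129). MGA, a subunit of the repressor complex PRC1.6 that silences germline genes, changed by 0.70 (limma adjusted p = 0.0624). It did not pass, and none of the other listed subunits E2F6, L3MBTL2 and PCGF6 was called. A single subunit does not read the complex. Of 26 genes beside the MAGEA cluster on Xq28, of which PASD1 and FATE1 are antigens themselves, 14 were tested and limma called 0, with 6 at an unadjusted p below 0.05 beside the same 23.8% (median -0.093).

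**Figure D5:**
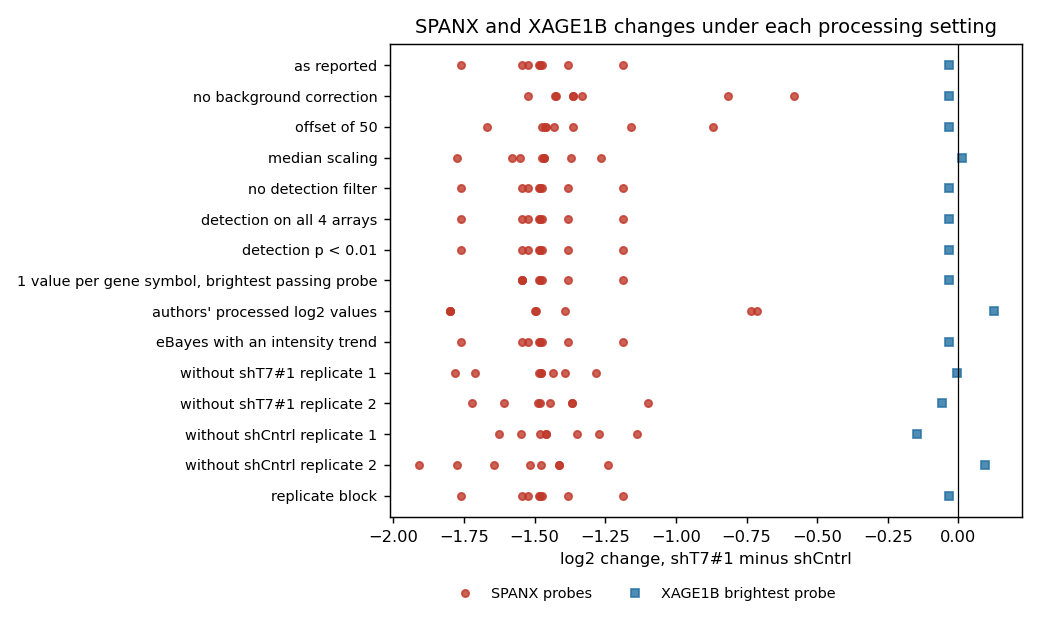
Log2 change (shT7#1 minus shCntrl) of the 8 SPANX probes and the brightest XAGE1B probe as reported and under each alternative processing. The authors' values are 1 per symbol. SPANX changes stay between -1.91 and -0.58 in all of them, while XAGE1B lies on both sides of 0.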

How the data were processed

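Total RNA from 4 samples was hybridised to HumanHT-12 v4 arrays. The deposited table gives an unnormalised signal intensity per probe and array, and a detection p-value against negative control beads. Per the submitters' processing notes, GenomeStudio 2011.1 was used. Another deposited table gives the authors' log2 values, 1 per symbol, normalised with RMA in ArrayStar per the file headers. A further deposited table holds the authors' mean log2 values and linear fold ratio without errors.

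Intensities were background-corrected with normexp (offset 16), quantile normalised and log2 transformed in limma 3.58.1 (R 4.3.3), which forces the arrays to 1 distribution. Probes with a detection p below 0.05 on at least 2 of 4 arrays (20366 of 47323) were fitted with lmFit and eBayes, the group as the only term and 2 residual degrees of freedom per probe. The eBayes step added 3.74 degrees of freedom borrowed from all probes tested, so each SE draws on their spread too. Tests were two-sided with Benjamini-Hochberg adjustment over all probes tested. The fit was tested on simulated data. Only 4 arrays limit precision. No source used here gives slide or scan batch. Members and lists were chosen with earlier results of these data known. The members given individually are the called ones and the brightest detected probe of each family, and others are given for their role. A bound uses, on each dim array, the higher of the detection floor (4.92 to 4.98 log2) and the probe's own signal. Of the 99 member symbols 74 are current in RefSeq, 13 are older names of 1 gene, 2 of several genes and 10 had no entry. The 7 promoter motifs were searched with Biopython 1.88. The leukocyte marker list is not reported here.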

Additional observations from a re-analysis of the deposited data

How the results depend on the processing

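The 8 SPANX calls, with no other member called, were also obtained without background correction, with an offset of 50, with median scaling, without a detection filter, with detection on all 4 arrays, with a detection p below 0.01 and with an intensity trend. With 1 value per symbol 6 symbols were called, all SPANX, and some of these are older names of the same genes. On the authors' processed log2 values 0 members were called, with a lowest SPANX adjusted p of 0.209. With 1 array left out 0 to 4 were called, all lower, with adjusted p-values of 0.0298 to 0.121 for the SPANX probes. Leaving 1 sample in a group assumes that it varies like the other group. No SPANX value changed direction under these settings. The probes called over the whole array, 950 as reported, numbered 2994 without background correction, 2460 with an offset of 50, 700 without the filter, 1655 with detection on all 4 arrays, 1527 with a detection p below 0.01, 2890 with the trend, 8 on the authors' values, all higher, and 64 to 125 with 1 array left out. The cause was not tested. Fitting the replicate number as a replicate block gave 8 member and 1053 array-wide calls. Same-numbered arrays deviated together with a correlation of 0.126 over 20366 probes, and the labels state no pairing. They were treated as sharing only a number, and a shared batch was not tested. Among members that did not pass, the XAGE1B probe ILMN_1691494 reversed to 0.013 with median scaling and ranged from -0.15 to 0.094 with 1 array left out. The authors' value for XAGE1B was 0.12. Authors' values are 1 per symbol, and that of XAGE1B can also draw on ILMN_1672582, which changed by 0.27 as reported. MAGEA6 reversed to 0.096 on the authors' values and ranged from -0.33 to 0.26, BAGE5 from -0.65 to 0.27 and MAGEC2 from -0.25 to 0.010 with 1 array left out. The causes were not tested. PLAC1, SPAG4 and MAGED1 were called in 8 of 14 alternatives each. Probes at background, 128 of the members, hold no information on change.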

Other observations

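The genes lying among the SPANX copies in RefSeq order were listed after the data were seen. From SPANXB1 to SPANXN1 with 12 genes on each side the order holds 64 genes, of which 24 symbols were on the array and 6 were tested. The 1 tested symbol that was no cancer-testis member was LDOC1, a nuclear leucine-zipper protein gene between SPANXB1 and SPANXC. LDOC1 read 159 and 182 in shT7#1 cells, against 231 and 222 in shCntrl cells. Its log2 values were 6.14 and 6.28 in shT7#1 cells and 7.13 and 6.87 in shCntrl cells, a change of -0.79 ± 0.15 (SE, limma adjusted p = 0.0472). The call was kept in 7 of 14 alternatives and the direction in all 14. It was lost without a detection filter (adjusted p = 0.0658), on the authors' values (0.340), with any 1 array left out (0.105 to 0.207) and with the replicate number as a block (0.0524). MAGEC2, also in this stretch, did not pass the test. Among markers of luminal breast epithelium, ESR1, PGR and CDH1 were above background on no array, KRT18 and GATA3 were tested and did not pass (-0.0052 and 0.33 log2, limma adjusted p = 0.989 and 0.418), and SPDEF was lower in shT7#1 cells (-1.73 log2, limma adjusted p = 0.00935), with a summed marker signal of 1112 to 1140 in shT7#1 cells and 1253 to 1274 in shCntrl cells. Of 5 fibroblast markers DCN was above background on no array, COL1A1 and COL3A1 on 1 array each, and LUM and PDGFRB were tested and did not pass (-0.0019 and -0.20 log2, limma adjusted p = 0.998 and 0.391). The summed fibroblast signal was 649 to 740 in shT7#1 cells and 658 to 711 in shCntrl cells. Whether other cells play a part in the SPANX result was not tested.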
